A study of Mus musculus with 12 samples.

Results

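The response of antigen-experienced CD4+ T cells to blocking Lag3 alone was read from 3 mice given anti-Lag3 and 3 mice given isotype control, which are 6 of the 12 samples sequenced. A mouse gene entered the tests when its reads over all 12 samples came to 30 or more, and 15138 of the 56691 genes counted did. The animals were Tg4 *Nr4a3*-Tocky *Il10*-GFP mice, typically 6 to 8 weeks old and of both sexes, whose CD4+ T cells carry a transgenic receptor for a myelin basic protein (MBP) peptide and a Timer reporter of *Nr4a3* that matures from blue to red. Every mouse was given 4 mg/kg of [4Y]-MBP peptide subcutaneously followed by 0.4 mg/kg in the opposite flank, and was killed 12 h after this later injection. The antibody (0.5 mg into the peritoneum) was given 24 h after the first peptide injection and 30 min before the later one. Isotype mice received a pool of rat IgG1 and rat IgG2a, and anti-Lag3 mice received clone C9B7W, a rat IgG1. The groups not described for their own sake received anti-PD-L1 (clone MIH5) or a mix of both antibodies at equal parts (CB). RNA was taken only from sorted splenic CD4+ *Nr4a3*-Blue+*Nr4a3*-Red+ cells, called responders, so a change in the number of responders was not measured here, and *Nr4a3* itself was part of the gate. The sort combined the 4 treatments after labelling each with a different CD4 fluorochrome, so fluorochrome and treatment cannot be told apart. Cells were sorted in batches of 4, and the paper states that the second component of its principal component analysis largely reflected this sorting. The labels do not say which samples shared a batch, so its part in the results was not tested as such. Fits with the sample number as a block are given in the last section.

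Lag3 is an inhibitory receptor that activated T cells place on their surface and that binds MHC class II, the molecule that presents peptide to CD4+ T cells. Signals from the T cell receptor pass through calcium and NFAT and through Ras and ERK to switch on costimulatory receptors, cytokines and the machinery of growth. Interferons signal through STAT factors, which bind short repeats in the promoters of antiviral genes and of a family of large GTPases that act on vacuoles holding pathogens.

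Reads on genes ranged from 16449370 to 18930284 in the isotype samples and from 18711007 to 19476710 in the anti-Lag3 samples, and 1 transcript without a symbol in the annotation used (ENSMUSG00000119584) took 14.3 to 20.9% of them. Levels are given as CPM, the reads of a gene relative to all reads of its library after TMM scaling, which sets the libraries to a common composition. Markers of CD4+ T cells summed to 5062 to 5155 CPM with anti-Lag3 and 5221 to 5399 CPM with isotype, and *Cd3e*, *Cd3d*, *Cd4* and *Trac* were present in each of the 6 samples. These sums did not overlap between the groups, though none of the 11 genes was separated by itself, and their part in the results was not tested. In such bulk samples fewer cells of a type and less RNA per cell cannot be told apart. The 11 B cell markers summed to 394 to 459 CPM and 407 to 465 CPM, most of it *Ighm*, while *Cd79a* did not exceed 1.11 CPM in any of the 6 samples. The 7 erythroid markers summed to 218 to 291 CPM and 245 to 452 CPM, and 4 of 6 neutrophil markers were at 0 in both groups. The Y-linked genes marked isotype samples 1 and 2 and anti-Lag3 sample 1 (102 to 143 CPM over 4 genes), and the other samples had at most 0.941 CPM. *Xist*, which is made from the inactive X chromosome, was at 360, 491 and 282 CPM in isotype sample 3 and anti-Lag3 samples 2 and 3. Isotype sample 2 had 11.3 CPM of *Xist* beside its Y-linked reads. The groups therefore differed in their mix of sexes, and values within samples of one kind are given beside the results. In CB and in anti-PD-L1 the mix was the same, with 1 of 3 samples carrying Y-linked reads in each.

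No gene passed an adjusted p of 0.05 between anti-Lag3 and isotype (0 of 15138 genes, 0%; edgeR quasi-likelihood test, Benjamini-Hochberg adjustment, smallest adjusted p = 0.496). Before adjustment 788 genes (5.21%) had p under 0.05, 440 of them higher (2.91%) and 348 lower (2.3%) with anti-Lag3, where a threshold of 0.05 marks 5% of genes when nothing differs. DESeq2 called 9 genes, and edgeR with the sample number as a block called 9, 7 higher and 2 lower. The median log2 fold change over all genes was 0, 49.4% of genes were above 0, and the median standard error was 0.27 (log2) for genes whose mean count was 30 or more. All 3 anti-Lag3 samples lay above all 3 isotype samples for 795 genes (5.25%) and below them for 728 genes (4.81%). The leading genes described next lie at both ends of this distribution, and no gene described passed the adjusted test by edgeR in the main fit, which has no block. *Igtp*, *Gnl2*, *Hspe1*, *Ppa1*, *Actn1* and *Cotl1* were among the genes that DESeq2 called. The gene lists were not tested.

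**Figure D1:**
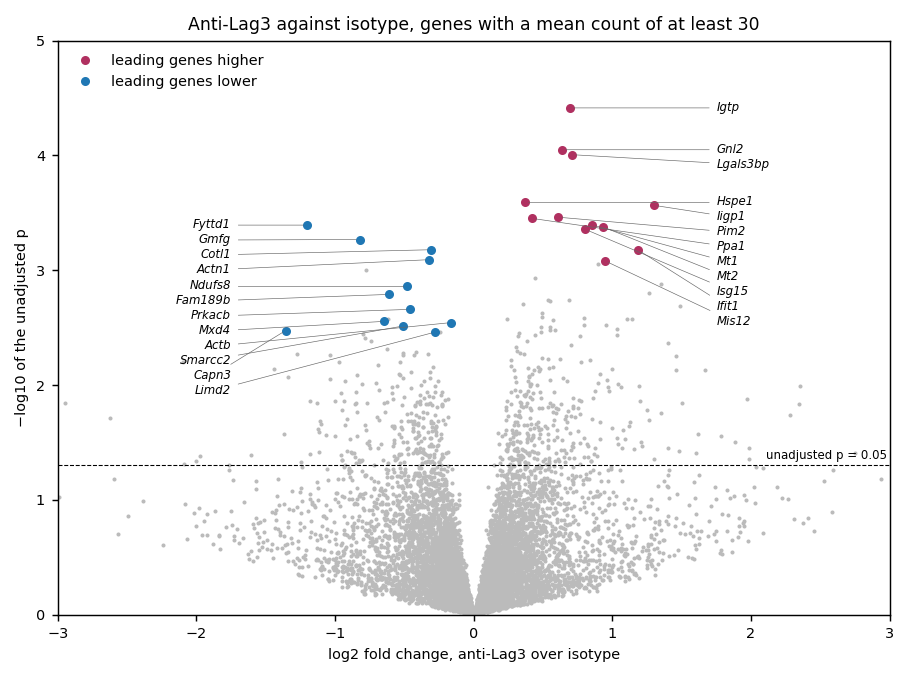
Each point is 1 gene whose mean count was 30 or more; the x axis gives the fitted log2 fold change of anti-Lag3 over isotype and the y axis the −log10 of edgeR's unadjusted p. The 12 leading genes in each direction are named, *Igtp* has the smallest p (3.85e-05) among them, and 9 genes beyond a log2 fold change of 3 either way are not drawn.

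The leading genes are the 12 higher and the 12 lower with the smallest unadjusted p among genes with a symbol, 30 or more counts on average and samples that did not overlap. They were picked by their own difference between the groups, so their values are a description. Among the 12 higher, 5 are known to be switched on by interferons (*Igtp*, *Iigp1*, *Isg15*, *Ifit1* and *Lgals3bp*), and the others include the metallothioneins *Mt1* and *Mt2*, the ribosome assembly factor *Gnl2*, the mitochondrial chaperonin *Hspe1* and the kinase *Pim2*. Among the 12 lower, *Actb*, *Actn1*, *Cotl1* and *Gmfg* encode actin, an actin crosslinker, an actin-binding protein and a regulator of actin branching.

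*Igtp* (ENSMUSG00000078853, chr11:58199556-58207591 of GRCm38, plus strand) encodes an interferon-inducible GTPase. It was at 63.6, 61.8 and 59.8 CPM in the isotype samples and at 90.5, 105 and 105 CPM in the anti-Lag3 samples. The SD was 1.885 CPM within isotype and 8.14 CPM within anti-Lag3. The groups differed 1.62-fold, or by 0.69 ± 0.14 on the log2 scale (fitted value ± standard error), with an adjusted p of 0.496 by edgeR. *Iigp1*, another GTPase of this family, was at 8.40, 5.64 and 11.8 CPM with isotype and at 19.0, 24.998 and 19.7 CPM with anti-Lag3. Its difference of 1.30 ± 0.31 (2.46-fold, with an adjusted p of 0.554 by edgeR) was the largest among the 12 higher genes.

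*Isg15*, a ubiquitin-like protein that is attached to other proteins after interferon, was at 72.2, 78.2 and 91.0 CPM with isotype and at 110, 141 and 170 CPM with anti-Lag3 (log2 fold change 0.80, standard error 0.20). *Ifit1*, which binds foreign RNA, was at 6.94, 12.7 and 11.49 CPM with isotype and at 23.4, 21.4 and 26.1 CPM with anti-Lag3 (log2 fold change 1.19, standard error 0.31). In both genes the lowest anti-Lag3 sample was above the highest isotype sample. *Lgals3bp*, a secreted glycoprotein that binds galectin-3, went from 48.2, 51.9 and 68.3 CPM to 86.5, 86.9 and 102 CPM (log2 fold change 0.71, standard error 0.15).

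The promoters of *Igtp*, *Isg15* and *Ifit1* are shown because they hold the repeat that interferon-activated factors bind, searched on both strands as GAAA, any 2 bases and GAAA again. Of the 10 leading higher genes with a promoter window here, these 3 held it, against 0 of the 10 leading lower genes with one and 3.44% of 32851 promoter windows of the same length. Each run is 300 bases from RefSeq on GRCm38.p6, 5′ to 3′ on the gene's strand, from 250 bases before the start to 50 after it, with the matches in capitals. A match is a description of the letters and not a shown binding site.
Igtp, chr11:58199306-58199605, plus strand: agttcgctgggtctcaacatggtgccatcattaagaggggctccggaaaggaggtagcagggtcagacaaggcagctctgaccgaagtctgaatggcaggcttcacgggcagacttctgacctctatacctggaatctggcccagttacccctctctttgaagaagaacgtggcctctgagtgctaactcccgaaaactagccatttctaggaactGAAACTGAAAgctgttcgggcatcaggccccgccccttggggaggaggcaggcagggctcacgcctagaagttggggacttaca
Isg15, chr4:156200769-156201068, minus strand: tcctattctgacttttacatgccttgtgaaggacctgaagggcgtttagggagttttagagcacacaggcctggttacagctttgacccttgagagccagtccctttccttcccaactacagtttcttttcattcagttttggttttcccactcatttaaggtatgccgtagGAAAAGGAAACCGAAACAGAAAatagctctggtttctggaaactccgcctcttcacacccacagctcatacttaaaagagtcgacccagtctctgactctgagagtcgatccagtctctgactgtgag
Ifit1, chr19:34640639-34640938, plus strand: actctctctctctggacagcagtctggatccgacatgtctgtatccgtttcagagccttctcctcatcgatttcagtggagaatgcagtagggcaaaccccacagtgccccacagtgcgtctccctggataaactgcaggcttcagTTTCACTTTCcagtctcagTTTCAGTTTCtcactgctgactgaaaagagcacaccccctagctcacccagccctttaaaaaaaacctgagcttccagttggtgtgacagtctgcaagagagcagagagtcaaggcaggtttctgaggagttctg
*Igtp* holds 1 match close to its start, *Ifit1* holds 2 separate matches on the opposite strand, and *Isg15* holds 3 that overlap into a single run of repeats. The other motifs searched were GGAAAN, the core that NFAT binds, in 7 of the 10 higher and 5 of the 10 lower genes (61.2% of all windows), TGANTCA for AP-1 in 1 and 0 (7.81%), and CACGTG, the E-box, in 1 and 1 (7.15%). The GGAAAN search also counts letters inside the interferon repeats.

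*Mt1* and *Mt2*, neighbouring genes of small proteins that bind zinc and copper, were higher in all 3 anti-Lag3 samples than in any isotype sample. *Mt1* was at 40.5, 27.3 and 58.3 CPM with isotype and at 85.9, 68.7 and 72.9 CPM with anti-Lag3 (log2 fold change 0.85, standard error 0.21). *Mt2* was at 21.1, 15.5 and 39.6 CPM with isotype and at 52.6, 46.7 and 46.6 CPM with anti-Lag3 (log2 fold change 0.93, standard error 0.23). Isotype sample 3 was the highest isotype sample for both and came nearest to the anti-Lag3 samples. Without it, *Mt2* was the single gene called between the groups (log2 fold change 1.40, adjusted p = 0.00612, edgeR). Within the samples with Y-linked reads *Mt1* differed by 1.34 and *Mt2* by 1.52, and within those without such reads, where isotype sample 3 stands alone, by 0.28 and 0.24.

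*Gnl2*, a GTPase needed to build the large ribosomal subunit, was at 61.6, 70.3 and 76.99 CPM with isotype and at 107, 116 and 102 CPM with anti-Lag3 (log2 fold change 0.64, standard error 0.14). *Hspe1* was at 345, 356 and 375 CPM and at 489, 438 and 461 CPM (0.37, standard error 0.09). Its neighbour *Hspd1* overlaps it on the other strand, and since the counting is not stated to use strand, reads of the pair could be exchanged. *Pim2*, a survival kinase made downstream of STAT signalling, was at 49.97, 53.1 and 49.5 CPM with isotype and at 85.0, 71.6 and 76.3 CPM with anti-Lag3 (0.61, standard error 0.15). *Ppa1*, a pyrophosphatase of biosynthesis, was at 160 to 173 CPM and 216 to 232 CPM (0.42, standard error 0.10). *Mis12*, a kinetochore protein that overlaps *Derl2*, was at 14.6 to 20.1 CPM and 28.7 to 37.2 CPM (0.95).

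**Figure D2:**
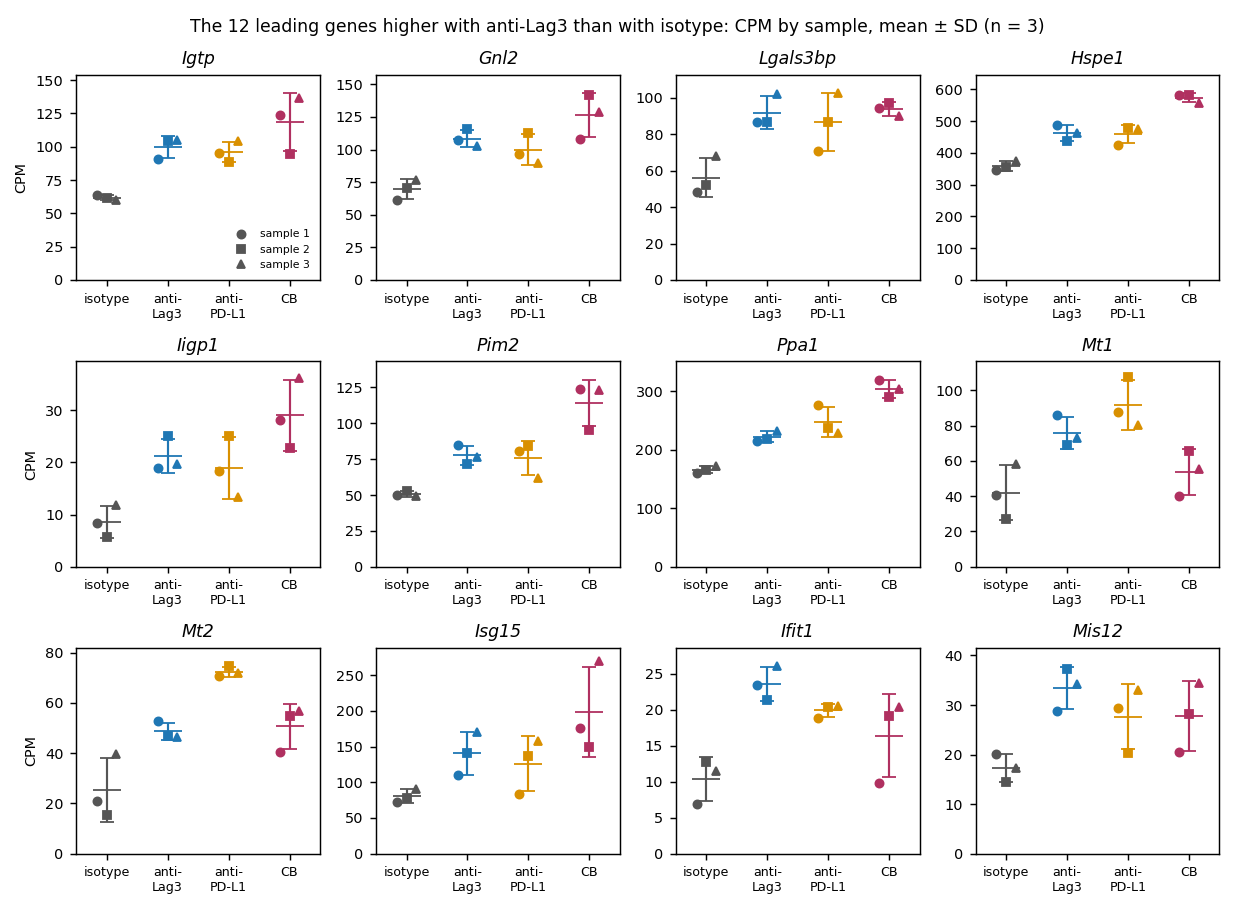
CPM (linear axis from 0) of the 12 leading higher genes in each of the 3 samples of the 4 groups; points are samples, the horizontal bar the mean and the error bar the SD. Anti-Lag3 lies above isotype in every panel, which is how the genes were chosen, while all CB points of *Mt1* and *Mt2* lie below those of anti-PD-L1.

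Among the leading lower genes the abundant ones differed by small amounts with narrow spread. *Cotl1*, which binds actin filaments, was at 1186, 1193 and 1141 CPM with isotype and at 912, 920 and 1013 CPM with anti-Lag3 (log2 fold change -0.31, standard error 0.08). *Actn1* was at 601, 646 and 648 CPM with isotype and at 468, 525 and 522 CPM with anti-Lag3 (-0.32, standard error 0.09). *Actb* was at 20879, 22370 and 20045 CPM and at 18503, 18815 and 19192 CPM (-0.16, standard error 0.05), so its groups were separated by less than the range within isotype. *Limd2*, a small LIM-domain protein, was at 996, 1000 and 904 CPM and at 767, 792 and 831 CPM (-0.28, standard error 0.09).

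The less abundant lower genes had larger fitted differences. *Gmfg* was at 54.7, 55.9 and 56.8 CPM with isotype and at 24.7, 33.3 and 36.7 CPM with anti-Lag3 (-0.82, standard error 0.21), but it overlaps *Samd4b* on the other strand. *Mxd4*, an antagonist of Myc, was at 81.5, 78.1 and 83.2 CPM and at 46.8, 67.8 and 40.7 CPM (-0.64, standard error 0.20). *Capn3*, a calcium-dependent protease, was at 16.1, 23.6 and 11.3 CPM and at 6.02, 3.96 and 9.93 CPM (-1.36, standard error 0.42), with isotype sample 3 close to anti-Lag3 sample 3. *Fyttd1*, an adaptor of mRNA export that overlaps *Rubcn*, was at 13.9 to 22.9 CPM and 6.30 to 9.75 CPM (-1.20, standard error 0.30). The other 4 were *Prkacb*, the catalytic subunit of protein kinase A (-0.46), *Smarcc2*, a subunit of the BAF chromatin remodeller (-0.51), *Ndufs8* of respiratory complex I (-0.48) and *Fam189b* (-0.61), with adjusted p of at least 0.805 (edgeR).

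**Figure D3:**
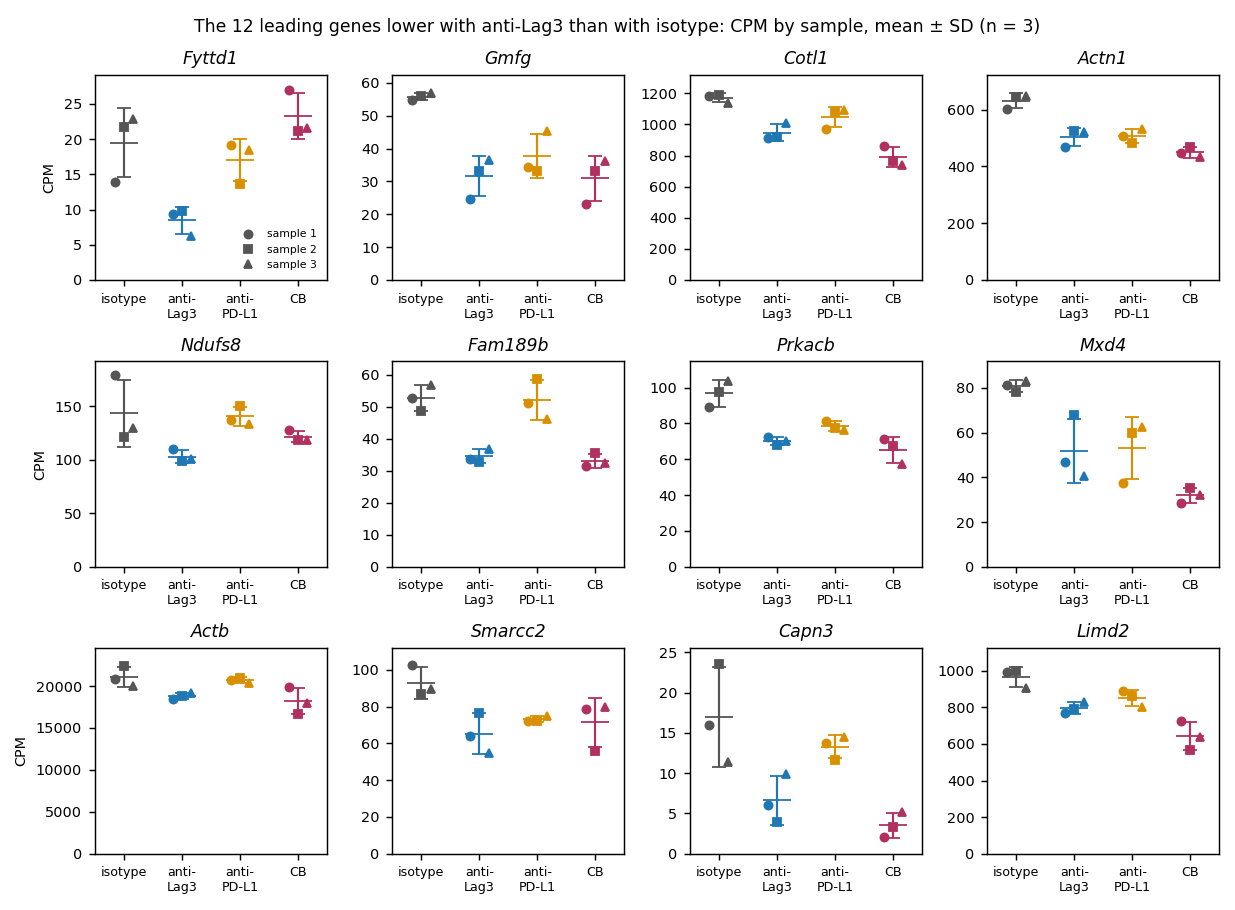
CPM (linear axis from 0) of the 12 leading lower genes in each of the 3 samples of the 4 groups; points are samples, the horizontal bar the mean and the error bar the SD. All anti-Lag3 points lie below all isotype points, by a narrow margin for *Actb* and *Capn3* and by a wide one for *Gmfg* and *Prkacb*.

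With the presence of Y-linked reads as a term in the fit, the 12 higher genes had log2 fold changes of 0.36 to 1.23 and the 12 lower genes of -1.39 to -0.14. Their sign is fixed by the choice of genes whose samples did not overlap, so only these sizes are given.

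CB against anti-PD-L1 is a second comparison with and without anti-Lag3 and shares no sample with the first. There 56 genes were called (0.37%), 31 higher (0.205%) and 25 lower (0.165%, edgeR). Single libraries weighed on this count, which was 4 without CB sample 3, 6 without anti-PD-L1 sample 2, 17 without CB sample 1 and 34 to 35 without each of the others. Of the 12 leading higher genes 9 were above 0 in it, where 49.9% of all genes were, and 3 had samples that did not overlap in the same direction (6.94% of all genes), but 0 were called, the nearest being *Pim2* (log2 fold change 0.59, adjusted p = 0.079, edgeR). Of the 12 leading lower genes 11 were below 0, where 48.4% of all genes were, 9 had samples that did not overlap in the same direction (5.75% of all genes), and 3 were called. By edgeR these were *Cotl1* (-0.41 ± 0.08, adjusted p = 0.021), *Capn3* (-1.92 ± 0.43, adjusted p = 0.0461) and *Limd2* (-0.40 ± 0.09, adjusted p = 0.0347).

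The genes that went the other way were *Mt1*, *Mt2*, *Ifit1* and *Fyttd1*. On the log2 scale CB over anti-PD-L1 was -0.77 for *Mt1*, -0.51 for *Mt2*, -0.28 for *Ifit1* and 0.45 for *Fyttd1*, none of them called. The interaction, which tests whether the anti-Lag3 difference is the same with and without anti-PD-L1, called 0 of 15138 genes (smallest adjusted p = 0.14, for *Mt1*; 898 genes or 5.93% at unadjusted p under 0.05; edgeR), while DESeq2 called 5. The comparison of anti-PD-L1 with anti-Lag3 itself called 0 genes (smallest adjusted p = 0.802; 710 genes or 4.69% at unadjusted p under 0.05; edgeR), and DESeq2 called 10. Over the 12 leading higher genes the log2 fold change of anti-PD-L1 over anti-Lag3 ran from -0.27 to 0.57, and over the 12 leading lower genes from 0.01 to 1.01. Both sets were chosen by their anti-Lag3 values, so these ranges are a description.

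**Figure D4:**
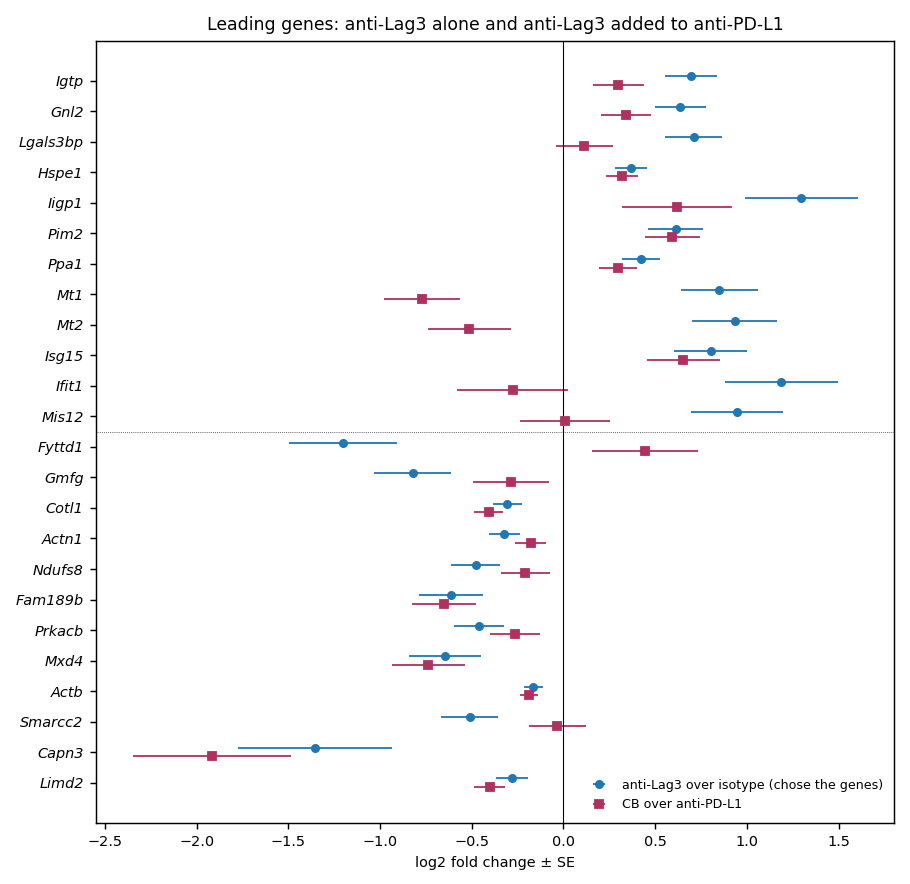
Fitted log2 fold change with its standard error for the 24 leading genes; circles are anti-Lag3 over isotype, the comparison that chose them, and squares are CB over anti-PD-L1, from other mice. Squares lie on the same side of 0 as circles for 9 of the 12 genes above the dotted line and 11 of the 12 below it; *Mt1*, *Mt2*, *Ifit1* and *Fyttd1* lie opposite.

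Interferon genes were then taken as whole lists. The 15 interferon-inducible GTPases tested (of 16) had a median log2 fold change of 0.69, with 12 above 0. All anti-Lag3 samples were above all isotype samples for 6 of them (5.25% of all genes) and below for 1 (4.81%). Their summed level was 249, 302 and 288 CPM with isotype and 384, 406 and 442 CPM with anti-Lag3, so the groups did not overlap. Besides *Igtp* and *Iigp1*, the smallest p were those of *Gbp5*, a guanylate-binding protein that was at 6.46 to 8.45 CPM and 12.2 to 18.0 CPM (log2 fold change 0.95), and *Ifi47*, at 74.7 to 122 CPM and 129 to 138 CPM (0.42). The exceptions were *Gbp8*, at 3.17 to 12.0 CPM with isotype and 1.87 to 3.47 CPM with anti-Lag3, *Tgtp2*, which was at or under 1.46 CPM in all 6 samples, and *Gbp6*, at or under 1.32 CPM.

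The 35 interferon-stimulated genes had a median log2 fold change of 0.24 (0.39 without anti-Lag3 sample 1), with 27 above 0. Of the 35, 8 had samples that did not overlap and were higher (5.25% of all genes), and 0 were lower (4.81%). The summed level was 1584, 1640 and 1805 CPM with isotype and 1843, 2163 and 2224 CPM with anti-Lag3, with isotype sample 3 close to anti-Lag3 sample 1. Beside *Isg15* and *Ifit1*, *Rtp4*, a chaperone of surface receptors, was at 12.97 to 14.9 CPM and 18.8 to 30.0 CPM (0.84), and *Parp14*, an ADP-ribosyltransferase, at 50.2 to 62.3 CPM and 77.03 to 84.6 CPM (0.49). The transducer *Stat2* (0.59, standard error 0.30) also had samples that did not overlap, whereas *Irf7* was at 0.02 and *Usp18*, a brake on the receptor, at 0.20. The RNA sensor gene *Ddx58* (-0.68) and *Ifit2* (-0.44) were below 0. In CB against anti-PD-L1 the list's median was -0.07 with 0 of 35 called, and that of the GTPases was 0.21 with 0 of 15 called. Over the same isotype samples the list's median was 0.29 for anti-PD-L1 and 0.33 for CB. That of the GTPases was 0.49 for anti-PD-L1 and 0.70 for CB, so values of this size were not particular to anti-Lag3. The Ifi200 family had a median of 0.02 over 11 genes and MHC class I with the immunoproteasome 0.04 over 15, though *Erap1*, which trims peptides for class I, was at 35.6 to 44.8 CPM and 51.5 to 64.0 CPM (0.55).

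Both interferon lists were also split by Y-linked reads. Anti-Lag3 sample 1 stands alone in its group among the samples with such reads, and isotype sample 3 among those without. Members whose samples did not overlap keep their direction in both splits, so the split cannot decide the part of the sex mix, which was not tested. Over members whose mean count was 30 or more, the median difference in log2(CPM + 1) was 0.52 and 0.57 for the GTPases and 0.13 and 0.32 for the interferon-stimulated genes, within the samples with and without Y-linked reads.

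Of 43 ribosome biogenesis genes 36 were above 0 (median 0.18), 13 had samples that did not overlap and were higher (5.25% of all genes), and 0 lower (4.81%). *Nolc1*, a nucleolar scaffold, was at 93.3, 131 and 117 CPM with isotype and at 160, 153 and 150 CPM with anti-Lag3 (log2 fold change 0.44, standard error 0.12), and was called higher in CB against anti-PD-L1 (0.62, adjusted p = 0.0204, edgeR). *Bysl*, of the small subunit, was at 22.04 to 35.7 CPM and 38.4 to 47.7 CPM (0.69), and *Rrp1b* at 49.8 to 66.0 CPM and 72.5 to 93.9 CPM (0.49). Anti-Lag3 sample 1 had the highest sum of the list (9335 CPM, against 8156 and 8616 CPM in the other anti-Lag3 samples and 7535 to 8104 CPM with isotype), and without it the median was 0.09. Within the samples with and without Y-linked reads the median difference was 0.31 and 0.07. In CB against anti-PD-L1 the list's median was 0.44 and 8 of 43 genes were called higher (0.205% of all genes). Over the same isotype samples the list's median was 0.28 for anti-PD-L1 and 0.69 for CB. The 41 cytosolic ribosomal proteins themselves had a median of 0.00, with 1 gene higher and 1 lower by samples that did not overlap (5.25% and 4.81% of all genes).

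The 18 heat shock chaperones had a median of 0.14, with 15 of them above 0. Samples did not overlap for 6, all higher (5.25% of all genes). Over the same isotype samples the median was 0.23 for anti-PD-L1 and 0.45 for CB. *Hsp90aa1*, the inducible HSP90, was at 1492, 1725 and 1537 CPM with isotype and at 1809, 1799 and 2002 CPM with anti-Lag3 (0.24, standard error 0.07), and was called in CB against anti-PD-L1 (0.43, adjusted p = 0.00814, edgeR). Cholesterol synthesis and uptake had a median of 0.24 over 20 genes, with *Lss*, which makes lanosterol, at 5.08 to 9.501 CPM and 12.4 to 19.0 CPM (1.04). For anti-PD-L1 and CB over the same isotype samples this list's median was 0.19 and 0.22. Its median difference was 0.30 within the samples with Y-linked reads and 0.09 within those without. The median was 0.51 over 7 metallothioneins and zinc carriers, and 0.30 without isotype sample 2. Within the samples with and without Y-linked reads the median differences were 0.98 and 0.16. Samples did not overlap for 3 of the 7, all higher (5.25% of all genes). These were *Mt1*, *Mt2* and *Mtf1*, their transcription factor (0.67). Over the same isotype samples the list's median was 0.41 for anti-PD-L1 and 0.64 for CB. Glycolysis (0.11 over 23 genes), the constitutive proteasome (0.07 over 24), translation initiation (0.04 over 19), oxidative phosphorylation (-0.02 over 26) and the BCL2 family (0.04 over 16) lay nearer to the median of all genes. Amino acid transporters had a median of 0.18 over 9, which was 0.046 without isotype sample 1.

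**Figure D5:**
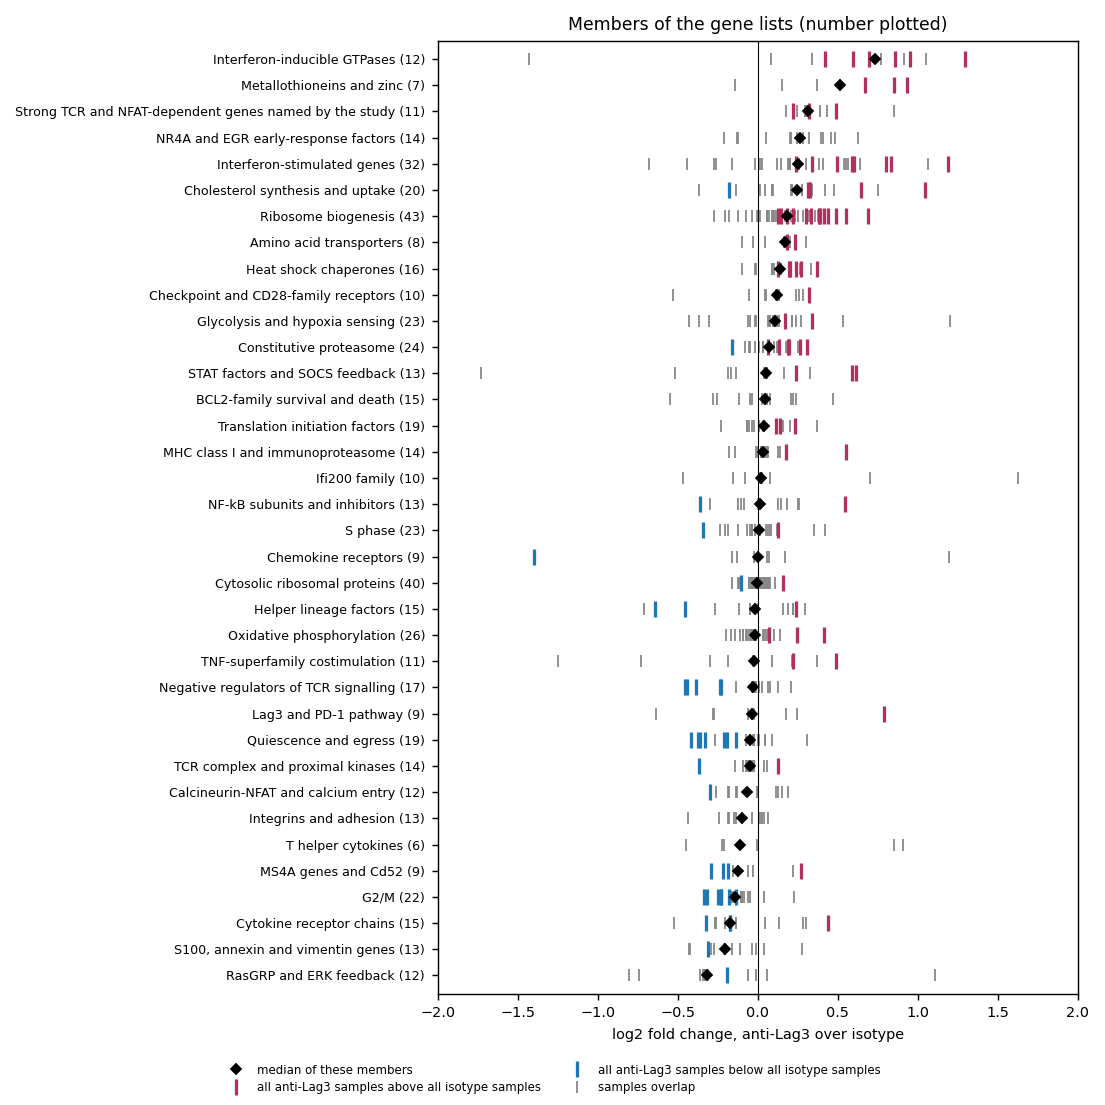
Log2 fold change of anti-Lag3 over isotype for each member whose mean count was 30 or more (ticks) of 36 gene lists, with the median of these members as a diamond; coloured ticks mark members whose samples did not overlap. The interferon-inducible GTPases have the highest median and 6 red ticks (anti-Lag3 above isotype), while the separated members of G2/M and of quiescence and egress, 7 each, are all blue (anti-Lag3 below isotype). Over all genes tested 5.25% were separated above isotype and 4.81% below.

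Genes that strong T cell receptor signals switch on were considered next, since the study is about these. All 11 genes of this kind that the study names were above 0 (median 0.31), but the study chose them on these same samples, so the count is not independent evidence of a direction. Over the same isotype samples their median was 0.28 for anti-PD-L1 and 0.92 for CB. *Icos*, a costimulatory receptor, was at 320, 402 and 394 CPM with isotype and at 484, 466 and 441 CPM with anti-Lag3 (0.32 ± 0.10, with an adjusted p of 0.805 by edgeR). *Tnfrsf4*, which encodes OX40, was at 56.1, 68.6 and 79.1 CPM and at 101, 81.6 and 103 CPM (0.49, standard error 0.15). In both genes the samples did not overlap, and *Icos* was called higher in CB against anti-PD-L1 (0.53, adjusted p = 0.0204, edgeR) while *Tnfrsf4* was not (0.52, adjusted p = 0.161). *Tnfrsf9*, or 4-1BB, was at 32.5 to 34.6 CPM and 36.6 to 42.8 CPM (0.22). The samples of *Irf8* (0.31), *Irf4* (0.39), *Maf* (0.30), *Tent5c* (0.43), *Il2ra* (0.30) and *Pdcd1* (0.18) overlapped.

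*Il21*, the cytokine of follicular helper cells, was at 5.48, 3.55 and 15.1 CPM with isotype and at 20.8, 13.4 and 9.35 CPM with anti-Lag3 (0.85, standard error 0.41). Its difference was 2.20 within the samples with Y-linked reads and -0.41 within those without, so its direction was not the same in both. *Ccr6*, a chemokine receptor, was at 1.01, 2.22 and 5.45 CPM and at 6.78, 9.999 and 3.10 CPM (1.19, standard error 0.43), and its 2 differences were 2.09 and 0.27. *Bcl3*, a nuclear partner of NF-kB, was at 37.6, 49.8 and 54.3 CPM and at 67.4, 67.4 and 72.2 CPM (0.55, standard error 0.17). Among the other genes the study names, *Hif1a* was at 0.21, *Hk2* at 0.21, *Aldoa* at 0.10, *Gnl3* at 0.30 and *Wdr43* at 0.14 (log2 fold change), of which *Gnl3* had samples that did not overlap and *Gnl3*, *Wdr43* and *Hk2* were called higher in CB against anti-PD-L1 (0.96, 0.76 and 0.90).

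The early-response factors gave no separated samples. The list held NR4A, EGR, FOS and JUN genes with *Nab1*, *Nab2*, *Myc* and *Ier2*. Of its 14 genes 11 were above 0 (median 0.26, or 0.13 without isotype sample 1). By samples that did not overlap 0 were higher and 0 lower (5.25% and 4.81% of all genes). *Nr4a3*, the reporter's gene, was at 29.4, 31.9 and 33.1 CPM with isotype and at 26.8, 31.8 and 28.0 CPM with anti-Lag3 (-0.12). *Fosb* was at 20.4, 23.1 and 45.3 CPM and at 35.6, 34.6 and 67.2 CPM (0.63), with isotype sample 3 above 2 anti-Lag3 samples. The list's summed level rose from sample 1 to sample 3 in both groups. It was 872.5, 910 and 1137 CPM with isotype and 874, 1082 and 1310.5 CPM with anti-Lag3. At each sample number *Fosb* and this sum were higher with anti-Lag3, the sum by little for sample 1, and *Nr4a3* was lower. The labels do not say that the numbers pair the mice.

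*Lag3* RNA was at 6.79, 6.27 and 4.24 CPM with isotype and at 6.73, 6.43 and 7.30 CPM with anti-Lag3 (0.24, standard error 0.55); the antibody acts on the protein, so this is not a check of the treatment. *Cd4*, whose product also binds MHC class II and was the target of the sort antibody, was at 311, 318 and 277 CPM and at 286, 222 and 238 CPM (-0.28, standard error 0.12). *Cd274*, which encodes PD-L1, was at 5.57 to 18.0 CPM and 5.57 to 11.9 CPM (-0.63, standard error 0.49), and *Pdcd1lg2*, which encodes PD-L2, at 3.52 to 7.15 CPM and 7.88 to 11.49 CPM (0.79, standard error 0.41), the one member of 9 with samples that did not overlap. The phosphatases *Ptpn6* (-0.04) and *Ptpn11* (-0.06) and the receptor chain *Cd247* (-0.03) were near 0. The proximal T cell receptor genes had a median of -0.05 over 14.

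Of 18 negative regulators of T cell receptor signalling 5 had samples that did not overlap and were lower (4.81% of all genes) and 0 were higher (5.25%), although the list's median was -0.03. Over the same isotype samples the median was -0.17 for anti-PD-L1 and -0.19 for CB. *Cbl*, a ubiquitin ligase that degrades receptor components, was at 187, 168 and 212 CPM with isotype and at 158, 140 and 116 CPM with anti-Lag3 (-0.45, standard error 0.16), and *Dgka*, a kinase that removes the lipid activating RasGRP, at 410 to 440 CPM and 342 to 374 CPM (-0.23). RasGRP and ERK feedback genes had a median of -0.31 over 13, 10 of them below 0, which was -0.12 without anti-Lag3 sample 1. The list held *Spry1* at 6.08 to 10.1 CPM and 3.02 to 6.72 CPM (-0.80) and *Rasgrp2* at 368 to 405 CPM and 298 to 362 CPM (-0.19), the one with samples that did not overlap. *Rasgrp2* was called lower in CB against anti-PD-L1 (-0.84, adjusted p = 0.00141, edgeR).

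Of 19 quiescence and egress genes 7 had samples that did not overlap and were lower (4.81% of all genes), and 0 higher (5.25%). Their median was -0.05, or 0.019 without isotype sample 3. Over the same isotype samples it was -0.23 for anti-PD-L1 and -0.32 for CB. *Lef1*, a transcription factor of resting T cells, was at 191, 187 and 186 CPM with isotype and at 121, 162 and 140 CPM with anti-Lag3 (-0.42, standard error 0.14). *Foxo1*, which keeps the resting state, was at 257, 227 and 224 CPM and at 170, 204 and 190 CPM (-0.33, standard error 0.11), and was called lower in CB against anti-PD-L1 (-0.49, adjusted p = 0.0443, edgeR). *S1pr1*, the receptor for leaving lymphoid tissue, was at 133, 137 and 116 CPM and at 97.9, 91.0 and 111 CPM (-0.36), and *Klf3* was at 93.5 to 126 CPM and 67.9 to 93.4 CPM (-0.38). Among lineage factors *Gata3*, of type 2 helper cells, was at 113, 103 and 97.6 CPM and at 80.8, 82.2 and 66.1 CPM (-0.45, standard error 0.16), and *Runx1* at 43.2 to 47.5 CPM and 22.4 to 40.7 CPM (-0.64), while *Runx3* was at 168 to 200 CPM and 203 to 220 CPM (0.24).

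Of 22 G2/M genes 20 were below 0 (median -0.15), with 7 lower (4.81% of all genes) and 0 higher (5.25%) by samples that did not overlap. Over the same isotype samples the median was -0.12 for anti-PD-L1 and -0.33 for CB. *Mki67*, the proliferation marker, was at 443, 404 and 354 CPM with isotype and at 330, 329 and 306 CPM with anti-Lag3 (-0.31, standard error 0.11), and *Top2a*, which untangles chromosomes, at 1488, 1532 and 1377 CPM and at 1333, 1208 and 1206 CPM (-0.23). *Ccnb1* was an exception at 167 to 189 CPM and 169 to 246 CPM (0.23). Within the samples with and without Y-linked reads the median difference of the list was -0.09 and -0.16. The 23 S phase genes had a median of 0.00.

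In the S100, annexin and vimentin list (median -0.18 over 14) *Anxa6* was at 472 to 547 CPM and 415 to 422 CPM (-0.31), and 5 of 14 were called lower in CB against anti-PD-L1 (0.165% of all genes). Among MS4A genes and *Cd52* (median -0.12 over 9), *Cd52* was at 1294 to 1362 CPM and 1158 to 1195 CPM (-0.19), *Ly6e* was lower (-0.29) and *Ly6a*, also known as Sca-1, higher at 450 to 488 CPM and 556 to 591 CPM (0.27), in each case with samples that did not overlap. Medians were 0.11 over 13 for checkpoint and CD28-family receptors (0.044 without anti-Lag3 sample 1), -0.03 over 12 for TNF-superfamily costimulation, -0.07 over 12 for calcineurin and calcium entry, -0.17 over 15 for cytokine receptor chains, -0.03 over 16 for lineage factors, 0.03 over 10 for chemokine receptors, -0.07 over 14 for integrins, 0.05 over 14 for STAT and SOCS genes and 0.01 over 13 for NF-kB. Of the 14 helper cytokines 8 were tested (median -0.11), and *Il10* was at 4.98, 6.08 and 11.8 CPM with isotype and at 8.55, 21.5 and 12.7 CPM with anti-Lag3 (0.90, standard error 0.46), its samples overlapping.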

How the data were processed

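Total RNA from sorted responder cells was made into 3′ mRNA libraries (QuantSeq) without molecular identifiers, so counting precision covers reads and not molecules. Per the labels and methods, the authors trimmed reads with Cutadapt 1.18, mapped them with STAR 2.6.1a to GRCm38 and took unique reads per gene with featureCounts 1.6.4; the annotation release and the strand setting are not given in the sources used here. The deposited table holds these raw counts for 56691 genes and 114 spike-in rows; the spike-ins (0.801 to 1.29% of reads in the 6 samples) were left out. The deposited rlog values were not used. Names and coordinates came from GENCODE M21 (52073 genes matched by identifier).

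Counts were fitted with edgeR 4.0.16 (limma 3.58.1, R 4.3.3): TMM, 4 group means over all 12 samples, no covariate, quasi-likelihood tests, prior count 0.125, Benjamini-Hochberg adjustment over 15138 genes, threshold 0.05. DESeq2 1.42.0 was an alternative. The code was tested on simulated data. No sample pair within a group agreed within sampling noise (chi-square per degree of freedom 20.9 to 47.1). Samples are separate mice per the labels. Samples were grouped by their treatment label. Genes named are the leading genes, those the study names, members of the *Lag3* and PD-1 list, and up to 4 members per list with the smallest p; *Nr4a3*, *Stat2*, *Irf7*, *Usp18*, *Ddx58*, *Ifit2*, *Ccnb1*, *Gbp6*, *Gbp8*, *Tgtp2*, the overlapping neighbours and the marker genes were named after their values were seen. The 36 gene lists and 10 marker lists, and the comparison itself, were chosen with earlier results of these data known. Lists were described by counts and medians, with no test. List medians are over all tested members, and the plot of the lists shows members with a mean count of at least 30. Promoter windows are from RefSeq (GRCm38.p6); 20 of the 24 leading genes had one here. Alternatives were another scaling, other filters, tools and thresholds, the replicate number as a block, the compared groups alone, the most abundant gene left out, each sample left out and, added after seeing the data, Y-linked reads as a term or a split and members with a mean count of at least 30. Some genes are not reported here.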

Additional observations from a re-analysis of the deposited data

Results flagged for a closer look

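For 3 of the leading genes all anti-Lag3 samples lay on one side of isotype while all CB samples lay on the opposite side of anti-PD-L1. For *Mt1* the interaction (CB minus anti-PD-L1 minus anti-Lag3 plus isotype) was -1.62 ± 0.30 on the log2 scale (fitted value ± standard error), with an adjusted p of 0.14 by edgeR. For *Mt2* it was -1.45 ± 0.32 (adjusted p = 0.474) and for *Fyttd1* 1.65 ± 0.41 (adjusted p = 0.752), both by edgeR. None passed the adjusted test; the *Mt1* interaction was called with no filter on low counts, by DESeq2, with the replicate block, with the Y-linked term and without isotype sample 3, and the *Mt2* interaction with no filter, with the replicate block and without isotype sample 3.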

How the results depend on the processing

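The count of genes called between anti-Lag3 and isotype (0) became 14 with no filter on low counts, 9 with DESeq2, 2 with DESeq2 against a log2 fold change of 0.2, and 9 with the replicate number as a block; it was 0 to 1 when each sample was left out (1, *Mt2*, without isotype sample 3) and 0 under the other alternatives. The labels do not say that a sample number marks a sort batch, and the numbers did not meet the threshold set for pairing. Over all genes tested, same-numbered isotype and anti-Lag3 samples correlated at -0.021 to 0.014. Of 18 pairs over all groups 0 passed 0.1, and 2 of 6 samples correlated best with their own number. A correlation over all genes cannot exclude that some genes differ by number. In all 4 groups the summed early-response factors rose from sample 1 to sample 3, and the G2/M sum was highest in sample 1. Every sample 1 carried Y-linked reads and no sample 3 did. What the number marks was not tested. With the replicate block the calls were *Isg15*, *Lgals3bp*, *Igtp*, *Ccne2*, *Gnl2*, *Mt2* and ENSMUSG00000120356, higher, and the Y-linked *Ddx3y* and *Eif2s3y*, lower. DESeq2 called *Igtp*, *Gnl2*, *Hspe1*, *Ppa1* and *Ighg2b* higher and *Actn1*, *Cotl1*, *Myh9* and ENSMUSG00000120027 lower. Of these, *Ighg2b* (log2 fold change 22.25, standard error 4.25) and ENSMUSG00000120027 (-8.49, standard error 1.70) had by far the largest fitted values. They were also the 2 genes that DESeq2 called against a log2 fold change of 0.2. Only 1 of these 2 had a mean count of at least 30, against 8 of all 9 DESeq2 calls. Within the samples with Y-linked reads 30 genes were called (24 lower) and within those without 5, where a lone sample of a group is assumed to vary like the others. For CB against anti-PD-L1 the count of 56 became 150 with no filter, 178 with DESeq2, 18 with DESeq2 and 3 with edgeR against 0.2, 137 with the replicate block, 21 with only the groups compared, 105 with the Y-linked term and 4 to 35 with a sample left out. The interaction count of 0 became 10 with no filter, 5 and 2 with DESeq2 against 0 and 0.2, 4 with the replicate block, 1 with the Y-linked term and 0 to 2 with a sample left out. Anti-PD-L1 against anti-Lag3 went from 0 to 2 with no filter, 10 and 8 with DESeq2 against 0 and 0.2, 1 with only the groups compared and 0 to 1 with a sample left out. With a sample left out, list medians ran from -0.10 to 0.01 for calcineurin and calcium entry, -0.073 to -0.012 for proximal T cell receptor genes, -0.060 to 0.11 for lineage factors, -0.21 to 0.015 for MS4A genes and *Cd52*, 0.095 to 0.20 for ribosome biogenesis, 0.047 to 0.12 for translation initiation (0.15 with the Y-linked term) and -0.080 to 0.017 for oxidative phosphorylation, -0.14 to 0.019 for quiescence and egress, -0.059 to 0.093 for chemokine receptors, 0.13 to 0.36 for the early-response factors, 0.046 to 0.20 for amino acid transporters, 0.044 to 0.19 for checkpoint receptors, 0.19 to 0.39 for interferon-stimulated genes, -0.27 to -0.12 for RasGRP and ERK feedback and 0.30 to 0.72 for metallothioneins and zinc carriers. Directions reversed for *Il21* (-0.41), *Wdr43* (-0.082) and *Cd247* (0.15) within samples without Y-linked reads, for *Itga4* (0.072), *Cd274* (0.031) and *Ptpn11* (0.017) within those with them, for *Lag3* with the Y-linked term (-0.0062), and with a sample left out for *Hk2* (-0.031 to 0.40) and *Cd247* (-0.11 to 0.046). The cause was not tested. With 3 mice a group, a median standard error of 0.27 and no molecular identifiers, a difference near or under that size was not detectable for a typical gene. Differences several times their standard error were also not called by edgeR, such as *Igtp* at 0.69 ± 0.14 (adjusted p = 0.496) and *Iigp1* at 1.30 ± 0.31 (adjusted p = 0.554). The limit for a typical gene was therefore well above 0.27.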
